A study of Mus musculus with 4 samples.

Results

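The early response genes Fos, Fosb, Fosl1, Fosl2, Jun, Junb, Jund, Egr1, Ier3 and Myc were followed in 4T1-S and 4T1-A, 2 sub-lines of the mouse breast cancer cell line 4T1, profiled on 1-colour Agilent whole-genome arrays with 2 arrays each. The series title calls 4T1-S highly immunogenic, and the labels name no treatment and no genetic change for either sub-line. The members were chosen by name: every spot of the array that was not a control and carried one of the 10 gene names was taken, which gave 40 spots of 13 probes for 9 genes, of 43379 spots, 41174 probes and 27670 gene names in all. No spot carried the name Jund. Probe A_51_P357744, named Jund1 in the array design, has an accession that RefSeq pairs with Jund, and its values are given here as Jund although they stand outside the choice by name. Replicate arrays carry only a number in the labels, and nothing says that they came from separate cultures. Each p-value is therefore set by the scatter of these 4 arrays alone, and that scatter may be technical.

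AP-1 is a family of dimeric transcription factors that join a Fos protein with a Jun protein, or Jun proteins with each other, and bind short palindromic DNA elements through a basic leucine zipper. Fos, Fosb, Jun, Junb, Egr1 and Ier3 are classical immediate early genes: in cultured cells, serum, growth factors, stress or handling switch on their transcription within minutes through existing factors, and the transcripts are short-lived. Fosl1 and Fosl2 tend to follow later and persist longer, Jund is held at a steady level in many cells, and Myc, which dimerises with Max and drives ribosome production and growth, is kept high in many carcinoma lines.

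Values are relative intensities, the processed intensity of a probe over the 75th percentile of its array. They can be set against each other between arrays for 1 probe and not between probes. All 10 genes were well above background on all 4 arrays. None of the 10 was called different between 4T1-S and 4T1-A: 0 of 10 passed an adjusted p of 0.05 in limma, against 6.96% of the 16173 genes tested. At an unadjusted p under 0.05 it was also 0 of 10, against 28.7% of all genes (20.5% higher and 8.2% lower in 4T1-S). Adjusted p-values of the members lay between 0.256 and 0.984. The spread that limma uses for a gene draws on all genes as well as on its own replicate arrays. A member that did not pass may therefore still differ. The log2 difference of 4T1-S minus 4T1-A was positive for 5 members and negative for the other 5, with a median of -0.08, beside a median of 0.13 over all genes tested. Under scaling to the array median, which placed the median of all genes at -0.16, the differences of Fos, Fosl2, Jund and Myc were negative, so that no direction is drawn from them.

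**Figure D1:**
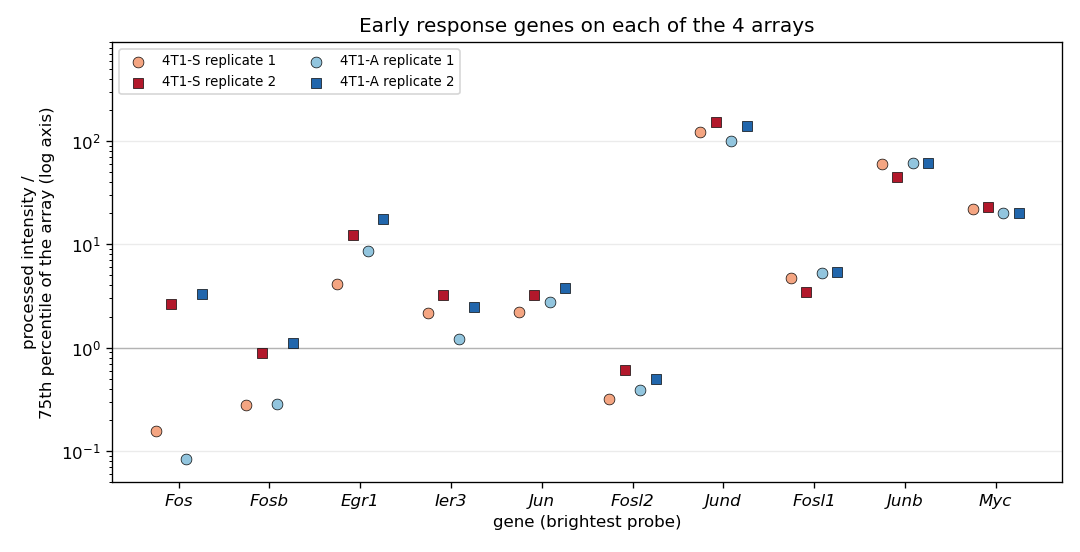
Relative intensity (log scale) of each early response gene on every array, with 4T1-S left of 4T1-A and 1 point per array. The 2 arrays of each sub-line lie far apart for Fos and clearly apart for Fosb and Egr1, and close together for Myc by its brightest probe.

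Fos, the founding partner of Jun in AP-1, had the widest spread. Its relative intensity was 0.156 and 2.62 on the replicate 1 and replicate 2 arrays of 4T1-S, against 0.0838 and 3.29 on those of 4T1-A. The replicate 2 array was high and the replicate 1 array low in each sub-line, and the ranges of the sub-lines overlapped. Replicate 2 stood 16.8-fold above replicate 1 in 4T1-S and 39.3-fold above it in 4T1-A. The processed intensity of Fos on the replicate 1 arrays was low, 63.8 in 4T1-S and 39.7 in 4T1-A. The size of these folds therefore leans on the background subtraction. Of the 16155 genes measured on every array, Fos had the widest gap between replicate arrays within 4T1-S and also within 4T1-A. The difference between the sub-lines was 0.28 ± 1.71 on the log2 scale (SE, n = 2 each, limma adjusted p = 0.933), with a 95% interval from -3.69 to 4.25, which allows anything from 0.0776-fold to 19.1-fold. By this fit, which counts a gap shared by both sub-lines as spread, the arrays put almost no bound on how Fos differs between the sub-lines.

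Fos is printed on the array as 10 spots of the same probe, so its gap could be set against the spread within an array. The 10 spots ran between 0.115 and 0.204 with a median of 0.161 on the replicate 1 array of 4T1-S, and between 1.84 and 3.64 with a median of 2.56 on its replicate 2 array. In 4T1-A they ran between 0.0642 and 0.113 with a median of 0.0855 on the replicate 1 array, and between 2.36 and 3.98 with a median of 3.28 on the replicate 2 array. The coefficient of variation among the spots was between 13.0% and 20.6%, and in each sub-line the lowest spot of replicate 2 lay above the highest spot of replicate 1. The spots of an array share 1 labelled RNA and are no replicates of the culture.

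**Figure D2:**
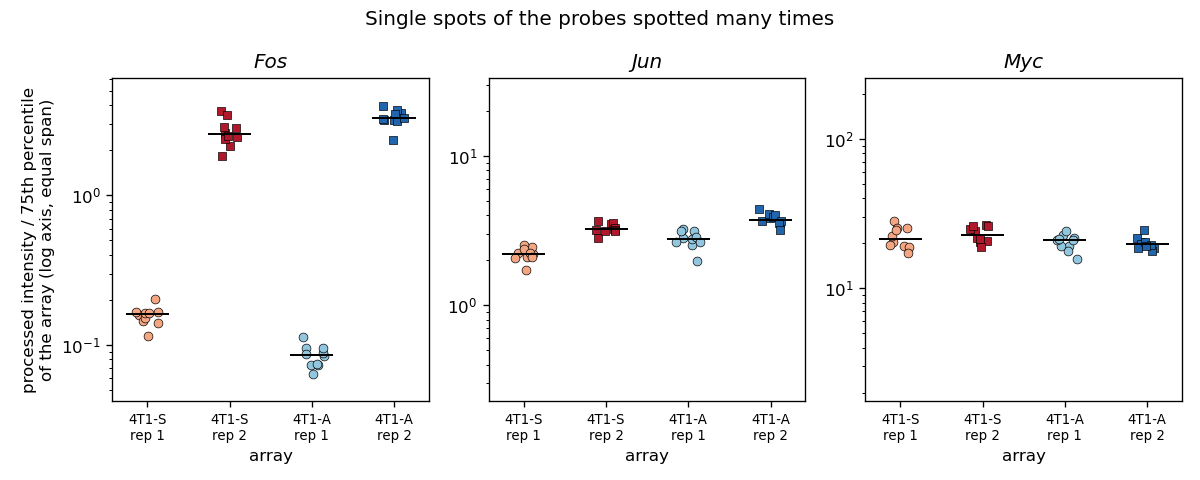
Relative intensity (log scale) of the 10 spots of the Fos, Jun and Myc probes on each array, 1 point per spot, 4T1-S left of 4T1-A. The Fos spots form a low cloud on each replicate 1 array and a high cloud on each replicate 2 array with no overlap, the Jun clouds lie closer together, touching in 4T1-A, and the Myc clouds overlap.

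The promoters of Fos and Fosb, the 2 Fos genes whose replicate gaps were widest, and of Jun and Junb, their partners with narrower gaps, are shown for comparison. Each is the 250 bases before the start of the gene, read 5′ to 3′ along the gene, from RefSeq on GRCm38.p6: chr12:85473640-85473889 on the plus strand for Fos, and on the minus strand chr7:19310046-19310295 for Fosb, chr4:95052223-95052472 for Jun and chr8:84978749-84978998 for Junb. Capitals mark 3 motifs. TGACG is the core of the element through which cyclic AMP signalling acts. TATAAA is the letters of a classical box near the start. GCGGGGGCG is the element bound by Egr1.
Fos: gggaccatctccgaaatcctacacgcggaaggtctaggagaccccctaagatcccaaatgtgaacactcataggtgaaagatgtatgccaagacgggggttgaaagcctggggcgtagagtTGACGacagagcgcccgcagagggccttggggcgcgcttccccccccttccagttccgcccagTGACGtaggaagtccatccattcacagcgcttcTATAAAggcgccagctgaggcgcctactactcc
Fosb: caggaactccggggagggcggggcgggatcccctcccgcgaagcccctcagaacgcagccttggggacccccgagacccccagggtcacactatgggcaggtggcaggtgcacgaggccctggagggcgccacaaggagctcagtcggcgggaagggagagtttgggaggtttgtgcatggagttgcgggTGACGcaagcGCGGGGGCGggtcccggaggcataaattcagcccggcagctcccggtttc
Jun: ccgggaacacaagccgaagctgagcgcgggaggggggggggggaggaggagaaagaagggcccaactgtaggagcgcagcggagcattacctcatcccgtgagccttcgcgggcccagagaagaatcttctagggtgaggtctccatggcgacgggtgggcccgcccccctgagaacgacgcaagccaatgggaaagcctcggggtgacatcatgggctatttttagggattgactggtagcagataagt
Junb: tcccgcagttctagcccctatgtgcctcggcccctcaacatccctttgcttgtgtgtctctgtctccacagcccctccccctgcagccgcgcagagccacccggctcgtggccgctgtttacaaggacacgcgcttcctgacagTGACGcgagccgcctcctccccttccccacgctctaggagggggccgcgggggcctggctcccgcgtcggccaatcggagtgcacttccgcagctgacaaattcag
The letters TGACG began 129 and 66 bases before the start in Fos, 60 bases before it in Fosb and 106 bases before it in Junb, and TATAAA began 33 bases before the start in Fos. GCGGGGGCG began 50 bases before the start in Fosb and 79 bases before it in Fosl2. Of the 10 members 7 had an entry in the promoter table; of these 3 held TGACG, against 17.8% of 32851 promoters of the same length, 2 held GCGGGGGCG, against 2.57%, and 1 held TATAAA, against 12.4%. None of the 7 held the full palindrome TGACGTCA, of which TGACG is a part and which 1.55% of promoters held, the AP-1 element TGAGTCA, held by 4.46%, or a CArG box, the element of serum response factor, held by 1.47%. Both strands were searched, and a match describes these letters only. Variants of these letters were not searched. A variant of an element within these 250 bases would therefore be missed. Bases further upstream than these 250 were not searched, so an element lying there would be missed.

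Fosb, a Fos paralog that is induced together with Fos in many cells, showed the same order of arrays over a smaller range. Its relative intensity was 0.280 and 0.883 on replicate arrays 1 and 2 of 4T1-S, against 0.282 and 1.12 on those of 4T1-A. The replicate 1 arrays of the sub-lines were nearly level and the replicate 2 arrays were 3.15-fold higher in 4T1-S and 3.97-fold higher in 4T1-A. Only 0.179% of genes had a wider gap within 4T1-S and 0.0804% within 4T1-A. The difference between the sub-lines was -0.18 ± 0.68 (SE, limma adjusted p = 0.890).

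Fosl1, which encodes Fra-1, the Fos protein most often tied to invasive carcinoma cells, had no such gap. It stood at 4.70 and 3.48 in 4T1-S, against 5.30 and 5.35 in 4T1-A. Both 4T1-S arrays were below both 4T1-A arrays, and the log2 difference of -0.40 ± 0.21 (SE, n = 2 each) gave the lowest adjusted p among the members, 0.256 in limma, with a 95% interval from -0.89 to 0.09. Fosl2, which encodes Fra-2, had 0.321 and 0.608 in 4T1-S, against 0.389 and 0.493 in 4T1-A, by its brighter probe A_52_P484903. Here the 4T1-S arrays enclosed the 4T1-A arrays, with a difference of 0.01 ± 0.31. The dimmer Fosl2 probe A_51_P507242 had 0.0958 and 0.0912 in 4T1-S, against 0.106 and 0.0991 in 4T1-A, a difference of -0.13, with an adjusted p of 0.698 in the limma fit across all probes.

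Among the Jun genes, Jun itself, the main partner of Fos, had 2.19 and 3.26 in 4T1-S, against 2.75 and 3.77 in 4T1-A. Replicate 2 was above replicate 1 in each sub-line, by 0.57 in 4T1-S and 0.45 in 4T1-A on the log2 scale, and the sub-lines overlapped. The difference was -0.27 ± 0.26 (SE, limma adjusted p = 0.534). The Jun probe is also printed as 10 spots, whose medians were 2.22 and 3.22 in 4T1-S, against 2.79 and 3.75 in 4T1-A, with a coefficient of variation between 7.70% and 13.0%.

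Junb, a Jun paralog that can restrain Jun in some settings, had 60.5 and 44.3 in 4T1-S, against 61.2 and 60.9 in 4T1-A by probe A_51_P159194. The 4T1-S arrays lay below those of 4T1-A, the first of them only just, and the difference was -0.24 ± 0.21 (SE, limma adjusted p = 0.501). Its second probe, A_51_P159201, had 52.2 and 46.3 in 4T1-S, against 72.1 and 52.0 in 4T1-A, where the ranges overlapped by a narrow margin and the difference was -0.32. Jund had 122.9 and 151.6 in 4T1-S, against 100.3 and 139.9 in 4T1-A, with replicate 2 the brighter array in each sub-line, and a difference of 0.20 ± 0.23 (limma adjusted p = 0.602).

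Egr1, a zinc finger factor induced through serum response factor and the ERK cascade, had 4.09 and 12.2 in 4T1-S, against 8.62 and 17.6 in 4T1-A. The lowest array was one of 4T1-S and the highest one of 4T1-A, and the sub-lines overlapped, since replicate 2 of 4T1-S was above replicate 1 of 4T1-A. Replicate 2 was 2.98-fold above replicate 1 in 4T1-S and 2.04-fold above it in 4T1-A. The difference was -0.80 ± 0.51 (SE, n = 2 each, limma adjusted p = 0.339), with a 95% interval from -1.99 to 0.39.

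Ier3, a short-lived protein that modulates ERK signalling and cell survival, had 2.17 and 3.25 in 4T1-S, against 1.22 and 2.45 in 4T1-A. Replicate 2 was above replicate 1 by 0.58 in 4T1-S and by 1.01 in 4T1-A on the log2 scale. The sub-lines overlapped, and the difference of 0.62 ± 0.35 gave an adjusted p of 0.279 in limma.

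Myc lay close together on all 4 arrays by its brightest probe, but not by its other probes. By probe A_51_P102096, printed as 10 spots, it had 21.9 and 22.9 in 4T1-S, against 20.3 and 20.0 in 4T1-A, and the difference was 0.15 ± 0.18 (SE, limma adjusted p = 0.620) with a 95% interval from -0.27 to 0.57. By this probe the log2 gap between replicate arrays was 0.07 in 4T1-S and -0.02 in 4T1-A. The single spots of that probe ran between 17.3 and 28.3 over the 2 arrays of 4T1-S and between 15.8 and 24.7 over those of 4T1-A, so that the spots of the sub-lines overlapped widely. Both other Myc probes gave larger differences. Probe A_52_P108346 had 20.2 and 27.9 in 4T1-S, against 16.0 and 19.8 in 4T1-A, with log2 gaps between replicates of 0.47 in 4T1-S and 0.31 in 4T1-A, and a difference of 0.41 with an adjusted p of 0.312 in the limma fit across all probes. Probe A_52_P278549 had 1.63 and 2.80 in 4T1-S, against 1.38 and 1.195 in 4T1-A, with gaps of 0.78 in 4T1-S and -0.21 in 4T1-A, and a difference of 0.73 ± 0.28 with an unadjusted p of 0.0322 and an adjusted p of 0.159 in the same limma fit. Of the 13 member probes 0 passed the adjusted threshold in that fit, against 4.52% of the 23691 probes tested.

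**Figure D3:**
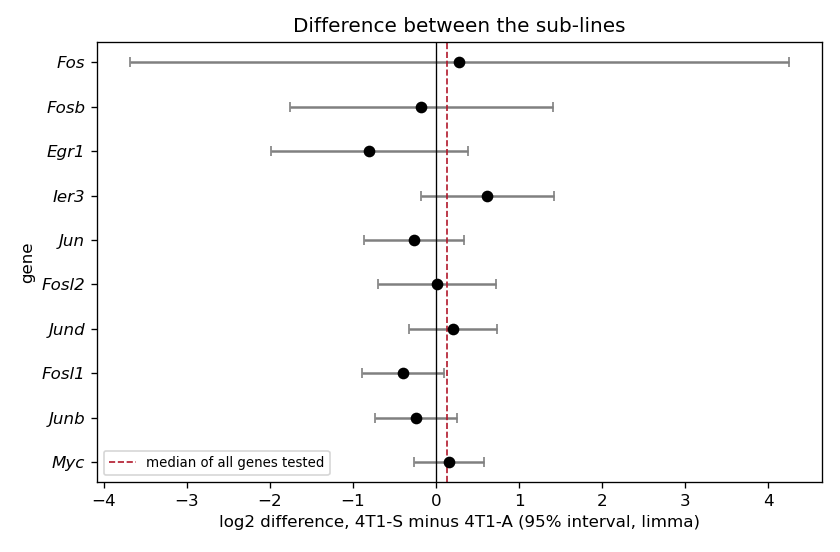
Log2 difference of 4T1-S minus 4T1-A for each early response gene, with its 95% interval from limma (points with bars, 2 arrays per sub-line). Every interval includes 0, and that of Fos runs from -3.69 to 4.25, far beyond the others.

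The 4T1-S and 4T1-A arrays did not overlap for 3 of the 10 members (Fosl1 and Junb lower in 4T1-S, and Myc higher, though Myc had a negative difference under median scaling). Of all genes 59.1% did not overlap, 40.6% with the 4T1-S arrays higher and 18.5% with them lower. The standard error of the difference was above the median of all genes, 0.203, for 9 of the 10. Leaving out 1 array changed some of these calls. Without replicate 1 of 4T1-A, 3 members passed the threshold in limma, Fos at -2.37, Fosb at -1.17 and Egr1 at -1.32, and without replicate 2 of 4T1-A, 2 members passed it, Fos at 2.93 and Ier3 at 1.12. Fos thus passed in opposite directions. In both of these fits limma gave nearly every gene the same spread: the standard error of Fos was 0.32 and 0.46 there, against 3.52 from the spread of its own 4T1-S arrays, which is larger than either difference. Without either of the 4T1-S arrays no member passed.

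The gap between replicate arrays was a larger quantity than the difference between sub-lines for several members, and it ran the same way in both. Replicate 2 was above replicate 1 in both sub-lines for 7 of the 10 members (Fos, Fosb, Fosl2, Jun, Jund, Egr1 and Ier3), against 31.5% of all genes, and it was at least 2-fold away in the same direction in both for 3 of the 10 (Fos, Fosb and Egr1), against 0.464% of all genes. In those 3 members replicate 2 was the higher array, as in 0.105% of all genes, while 0.359% of all genes had it lower. The median absolute gap of the members was 0.58 in 4T1-S and 0.47 in 4T1-A on the log2 scale, against 0.22 in each over all genes. Ranked by the smaller of its gaps in the sub-lines, Fos was at rank 1 of 16155, Fosb at rank 8 and Egr1 at rank 69. These gaps are described and not tested. The labels do not say whether arrays of the same number share anything.

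**Figure D4:**
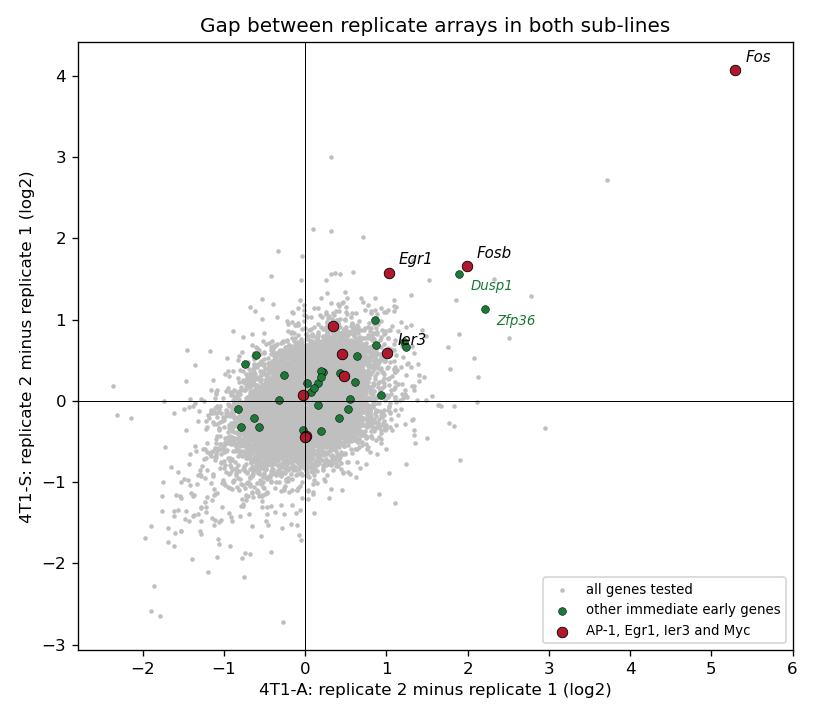
Gap between replicate arrays, as log2 of replicate 2 over replicate 1, for all genes (grey), other immediate early genes (green) and the early response genes (red, the widest named), in 4T1-S on the vertical axis and 4T1-A on the horizontal axis. Fos lies alone at 4.07 and 5.30, while Myc, Junb and Fosl1 lie near the centre of the cloud.

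Other immediate early genes were read from a list of 35, of which 31 were tested. In the comparison of the sub-lines 2 were higher in 4T1-S, 0 were lower and 29 did not pass, with a median difference of -0.04; of all genes 3.95% were higher and 3.01% lower. Nfil3, a bZIP repressor, rose to 12.1 and 14.0 in 4T1-S, against 5.69 and 6.33 in 4T1-A (1.11 ± 0.19, limma adjusted p = 0.0159). Cebpb, a bZIP factor of inflammatory gene expression, rose to 11.7 and 9.03 in 4T1-S, against 5.16 and 5.88 in 4T1-A (0.90 ± 0.21, adjusted p = 0.0457). Neither of these called genes had a replicate gap of 2-fold. The Cebpb call was lost under every other scaling, background correction and filter and without any 1 array other than replicate 2 of 4T1-A. That of Nfil3 was lost under median scaling, with no filter and without either of the 4T1-S arrays.

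Of the same 31 genes 18 had replicate 2 above replicate 1 in both sub-lines and 5 had it below in both, and 2 had it at least 2-fold above in both, against 0.105% of all genes. The 2 were Dusp1, the phosphatase that turns off MAP kinases, and Zfp36, which encodes the mRNA decay factor tristetraprolin; both are named after their values were seen. Dusp1 had 0.665 and 1.97 in 4T1-S, against 0.753 and 2.80 in 4T1-A. Zfp36 had 1.02 and 2.23 in 4T1-S, against 0.892 and 4.14 in 4T1-A. In each sub-line their replicate 2 array was the high one, as for Fos. Csrnp1 (0.999 in 4T1-S and 0.86 in 4T1-A), Atf3 (0.72 and 1.21 in the same order) and Egr2 (0.66 and 1.24), likewise named after their values were seen, had smaller log2 gaps of the same direction. The median absolute gap of the list was 0.32 in 4T1-S and 0.56 in 4T1-A, against 0.22 in each over all genes. Since some of its genes went the other way, its median gap with sign was 0.22 in 4T1-S and 0.20 in 4T1-A.

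**Figure D5:**
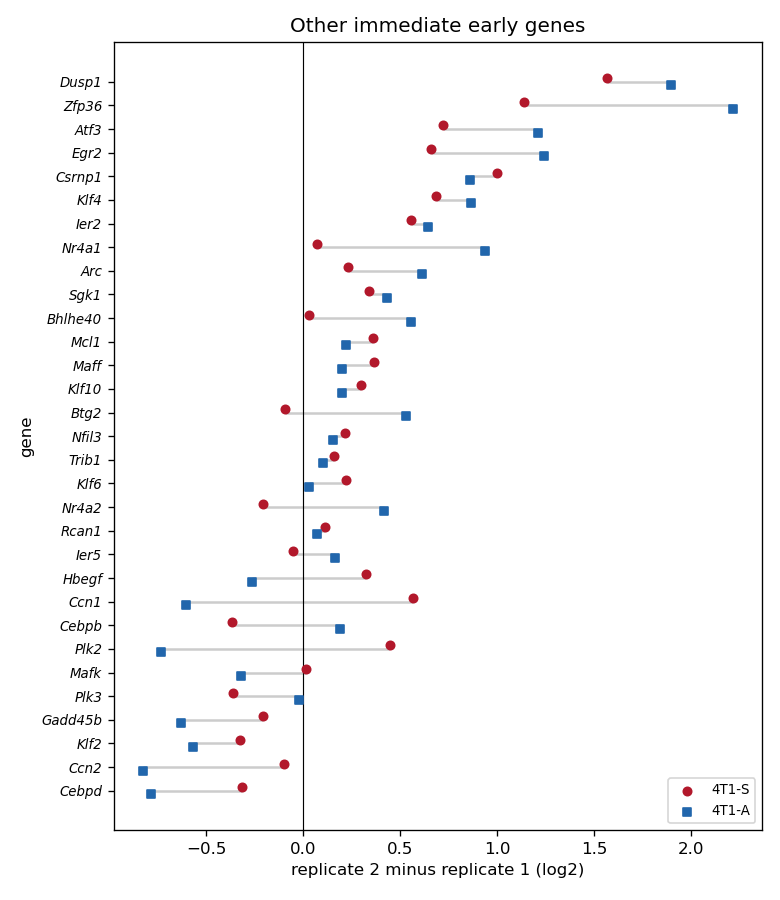
Gap between replicate arrays, as log2 of replicate 2 over replicate 1, for the 31 other immediate early genes tested, 1 row per gene, with 4T1-S and 4T1-A as separate points. Dusp1 and Zfp36 are above 1 in both sub-lines, and most of the other genes lie between -1 and 1.

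Of all genes 3.95% were higher in 4T1-S and 3.01% lower. Of the genes upstream of the members, the MAP kinase cascade had 16 tested genes, with 0 higher and 1 lower. That one was Mapk13, the p38 delta kinase, which fell to 2.36 and 2.17 in 4T1-S, against 5.73 and 6.70 in 4T1-A (-1.45 ± 0.19, limma adjusted p = 0.00473), a call lost without replicate 2 of 4T1-S (adjusted p = 0.0666) and, just, with no filter (0.0501). Among serum response factor and its cofactors 0 of 6 passed in limma, with 2 lower and 0 higher at an unadjusted p under 0.05, where 28.7% of all genes stood, and a list median of -0.28. The brightest was Elk3, a ternary complex factor, with 16.3 and 18.6 in 4T1-S, against 26.5 and 26.6 in 4T1-A (-0.61 ± 0.19, adjusted p = 0.0883). Among the scalings it passed under that to the array median (adjusted p = 0.0416). Of the ERK feedback and output genes 10 were tested, with 1 higher, 1 lower and a median of 0.01. Dusp6, the cytoplasmic phosphatase of ERK, fell to 9.11 and 8.53 in 4T1-S, against 19.7 and 14.8 in 4T1-A (-0.95 ± 0.21, adjusted p = 0.0387), a call lost under normexp background correction, with no filter and without any 1 array other than replicate 2 of 4T1-A. Spry4, a feedback inhibitor of receptor signalling named after its values were seen, was not well above background in 4T1-A. In 4T1-S it stood an estimated 1.96-fold higher, with relative intensities of 0.106 and 0.0935 in 4T1-S, against 0.0533 and 0.0453 in 4T1-A. The limma fit to the measured values gave a log2 difference of 1.02 (adjusted p = 0.0245). The call was lost under every other scaling and background correction, with no filter, with the mean of its probes and without either of the 4T1-S arrays, and the filter on all 4 arrays removed the gene. The estimate of 1.96-fold sets the mean of the 4T1-S arrays against a floored value for each 4T1-A array. That value was the higher of the probe's own signal and the dimmest signal that still counted as well above background. It is no lower limit on the difference.

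The bZIP partners of AP-1 did not pass in either direction: 0 of 16 in limma, with 3 higher and 0 lower at an unadjusted p under 0.05, beside 28.7% of all genes in either direction, and a median difference of 0.11. Mafg, a small Maf protein and the brightest of them, had 17.6 and 19.6 in 4T1-S, against 20.9 and 16.3 in 4T1-A, with a difference of 0.01 ± 0.21.

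Of 15 tested AP-1 target genes 1 was higher, 2 were lower and 12 did not pass, with a median difference of 0.01. Of all genes 3.95% were higher and 3.01% lower. Mmp3, the matrix metalloproteinase stromelysin-1, fell to 1.54 and 1.45 in 4T1-S, against 8.73 and 9.07 in 4T1-A (-2.58 ± 0.18, limma adjusted p = 1.76e-04). Mmp10, stromelysin-2, fell to 1.26 and 1.08 in 4T1-S, against 2.61 and 2.71 in 4T1-A (-1.19 ± 0.19, adjusted p = 0.0112), a call lost with no filter (adjusted p = 0.0697) and without either of the 4T1-S arrays (0.0606 and 0.111). Vegfa, the vascular growth factor, rose to 3.43 and 4.53 in 4T1-S, against 1.61 and 2.25 in 4T1-A (1.05 ± 0.24, adjusted p = 0.0444), a call lost under every other scaling, background correction and filter, with the mean of its probes, and without any 1 array other than replicate 2 of 4T1-A. Both stromelysins were level between replicate arrays, where Fos was not: the log2 gaps of Mmp3 were -0.08 in 4T1-S and 0.06 in 4T1-A.

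Of 11 tested partners and targets of Egr1, 3 were higher, 0 were lower and 8 did not pass, with a median difference of 0.23. Of all genes 3.95% were higher and 3.01% lower, with a median difference of 0.13. Under median scaling 1 gene of the list was higher and 1 lower, with a list median of -0.06, so no direction is drawn for the list. Icam1, an adhesion receptor for leukocyte integrins, rose to 1.09 and 1.31 in 4T1-S, against 0.418 and 0.393 in 4T1-A (1.55 ± 0.19, limma adjusted p = 0.00355). Without replicate 2 of 4T1-S its adjusted p was 0.0547. Ptges, the prostaglandin E synthase, rose to 1.25 and 1.16 in 4T1-S, against 0.468 and 0.614 in 4T1-A (1.17 ± 0.21, adjusted p = 0.0180), a call lost under median scaling, with no filter and without either of the 4T1-S arrays. Vegfa was the remaining one.

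Around Myc, 0 of 10 tested genes of the Max network passed in limma, with 2 higher and 0 lower at an unadjusted p under 0.05, beside 28.7% of all genes in either direction, and a median difference of 0.29. Max itself, the obligate partner of Myc, had 26.0 and 26.9 in 4T1-S, against 30.2 and 23.1 in 4T1-A (0.01 ± 0.21). Of the 25 Myc target genes 0 passed in limma, with 1 higher and 2 lower at an unadjusted p under 0.05, again beside 28.7% of all genes, and a median difference of -0.05. Odc1, the polyamine synthesis enzyme and the brightest of them, had 262.7 and 187.1 in 4T1-S, against 233.2 and 195.6 in 4T1-A (0.05 ± 0.23). In 17 of the 25 Myc target genes replicate 2 was below replicate 1 in both sub-lines, against 31.8% of all genes, with median log2 gaps of -0.16 in 4T1-S and -0.25 in 4T1-A.

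The 4 arrays were of comparable quality: 58.2% to 59.2% of spots were well above background on the 4T1-S arrays, and 54.9% to 56.3% on the 4T1-A arrays. The log2 values of replicate arrays correlated at 0.993 in 4T1-S and 0.992 in 4T1-A across genes, which are not independent replicates, against 0.973 to 0.980 between the sub-lines. All arrays came from 1 slide in 1 scan, with each sub-line in neighbouring positions, so that position on the slide and sub-line cannot be told apart. All 6 epithelial carcinoma markers were above background on all arrays, but 4 of the 6 were lower in 4T1-S: Epcam by a log2 difference of -3.78, Krt19 by -2.61, Krt14 by -2.06 and Cdh1 by -1.11. Krt8 and Krt18 did not pass. The summed relative intensities were 228 and 192 in 4T1-S, against 244 and 256 in 4T1-A. Such sums, here and for the markers below, are weighted to the brightest probes and say nothing of the share of a marker. The leukocyte markers, 3 of 7 above background on all arrays, summed to 0.546 and 0.632 in 4T1-S, against 0.469 and 0.429 in 4T1-A. Ptprc, their defining gene, was above background on 1 of the 4T1-S arrays and on 0 of the 4T1-A arrays. The fibroblast markers, 1 of 4 above background on all arrays, summed to 0.975 and 1.01 in 4T1-S, against 0.417 and 0.650 in 4T1-A. Among them Col1a1 was higher in 4T1-S by a log2 difference of 1.95 (limma adjusted p = 0.00519), and above background on 0 of the 4T1-A arrays. Pdgfra, the other one tested, did not pass (limma adjusted p = 0.0739). Of 3 endothelial markers 0 were above background on any array. The part of these markers in the gaps between replicate arrays was not tested.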

How the data were processed

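Total RNA of 4 samples of mouse 4T1 sub-lines, 4T1-S and 4T1-A with 2 each, was labelled with Cy3 and hybridised to 1-colour Agilent arrays, per the labels' protocols. The arrays were read with Agilent Feature Extraction 9.1, per the submitters' processing notes. The processed intensity of each spot was background-subtracted and detrended within the array, per the file headers. The authors' deposited value table holds a ratio, which the values show to be that intensity over the array's 75th percentile. No other processing is given in the sources used here.

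From the scanner files, log2 of the processed intensity minus that of the array's 75th percentile was taken, spots of a probe were averaged without outlier-flagged spots, and a gene was read by its brightest probe. Symbols were updated through RefSeq accessions (22951 probes) and symbols (9768 probes), and 8455 probes kept the file's name. Genes entered the test if either sub-line had them well above background on both of its arrays. They were tested with limma 3.58.1 in R 4.3.3 (lmFit, eBayes), with Benjamini-Hochberg adjustment over all 16173 genes, and in a second fit over all probes. Each difference takes 4T1-A from 4T1-S and is a log2 value unless a fold is named. With 4 arrays the precision is limited by their number, and a permutation of single values could not reach the threshold of 0.05. The fits were tried on simulated data, where the fit without a block missed most 2-fold changes and found 97% of 4-fold changes. When a shift shared by replicate number was added to all genes, that fit missed every 2-fold and 4-fold change. The fit with a block found most 4-fold changes there, with more false calls. The shift was added to a spread estimated without a block, which already holds any gap shared by replicate number. The shifted runs therefore do not show how either fit behaves on these arrays. Scaling, background correction, filter, probe choice, spread model, flagged spots, the deposited table, replicate number as a block and each array left out were tried as alternatives.

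The members and the 9 pathway lists of 149 genes were chosen with earlier results of these data known. Named are all members and, of each list, up to 2 called genes with the largest rise and up to 2 with the largest fall among those above background on every array, or the brightest gene where none was called; other genes are marked where they appear.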

Additional observations from a re-analysis of the deposited data

How the results depend on the processing

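No member passed the threshold in limma under the 10 alternatives to scaling, background correction, filter, probe choice, spread model, flagged spots and values that kept all 4 arrays without a replicate block. Fos, Fosb and Egr1 were the 3 members at least 2-fold apart the same way in both sub-lines under each of these but the spread model, for which gaps were not recomputed, a check chosen after seeing the data, while the count over all genes, 75, was 21 under normexp and 153 with no filter. The count of genes called, 1126 (639 higher, 487 lower), was 739 under quantile normalization (267 higher, 472 lower), 508 under normexp (229 higher, 279 lower), 271 with no filter (97 higher, 174 lower) and 611 with the filter on all 4 arrays (305 higher, 306 lower). It was 1076 under median scaling (189 higher, 887 lower) and 780 under cyclic loess (249 higher, 531 lower). Probes called, 1070, were 302 with no filter. The 10 list genes called were 6 under normexp and 3 with no filter. With 1 array left out, genes called ranged from 305 to 2400, members called from 0 to 3 and list genes called from 1 to 17. The lone array of a sub-line is then assumed to vary like the other sub-line. Without replicate 1 of 4T1-A the prior degrees of freedom of limma were infinite, and without replicate 2 of 4T1-A they were 96.9, against 5.71 with all arrays. The differences of some genes near 0 changed sign. Median scaling gave -0.0085 for Fos, -0.28 for Fosl2, -0.0864 for Jund, -0.14 for Myc, -0.28 for Max, -0.24 for Odc1 and -0.28 for Mafg. Quantile normalization gave -0.0244 for Max and -0.00708 for Odc1. Cyclic loess gave -0.0576 for Fosl2, -0.0351 for Max, -0.0381 for Odc1 and -0.0225 for Mafg. Normexp gave -0.0776 for Max, and the mean of probes -0.0608 for Fosl2. With 1 array left out, the difference ran from -2.37 to 2.93 for Fos, from -1.17 to 0.82 for Fosb, from -0.45 to 0.47 for Fosl2, from -0.55 to 0.0179 for Jun and from -0.0355 to 0.44 for Jund. It ran from -0.19 to 0.20 for Max, from -0.19 to 0.30 for Odc1 and from -0.17 to 0.19 for Mafg. With the replicate number as a block, 3689 genes (2522 higher, 1167 lower), 30 list genes and 2 members were called, Egr1 (adjusted p = 0.0240) and Ier3 (adjusted p = 0.0412). Elk3 also passed there (adjusted p = 0.0332). Fos did not pass there, at 0.28 ± 0.27 (SE, limma adjusted p = 0.479). Without the block, a gap shared by both sub-lines counts as spread between replicates, so a member that did not pass may still differ. Replicate gaps of the sub-lines correlated at 0.42 (Pearson) and 0.37 (Spearman) across genes, but with 2 pairs and labels that say nothing of a shared culture or day, the numbers are not taken to pair the arrays. Signals below background limit what can be read of dim genes such as Spry4.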

Other observations

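Outside the early response genes, the gap between replicate arrays was next widest, by the smaller of the gaps in the sub-lines, for Cdsn, which encodes the adhesion protein corneodesmosin. Its replicate 2 array was above its replicate 1 array by 2.71 in 4T1-S and 3.71 in 4T1-A on the log2 scale. Genes with the opposite order included Malat1, a nuclear long noncoding RNA, with gaps of -1.73 in 4T1-S and -1.69 in 4T1-A, and Snord22, listed under a small nucleolar RNA name, with gaps of -1.62 and -1.60 in the same order. In all, 17 genes had replicate 2 at least 2-fold above replicate 1 in both sub-lines and 58 had it at least 2-fold below. These genes were named after their values were seen, and their gaps were not tested.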
